A study of Rattus norvegicus with 17 samples.

Results

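Cytosolic ribosomal protein genes encode the proteins of the 2 ribosomal subunits that translate the messenger RNAs of the nucleus. In the count table of rat gastrocnemius muscle they were taken by name: entries of the protein-coding class whose gene name began with Rpl, Rps or Rplp and a number, or was Rpsa, without the Rps6k kinases. The rule found 99 of 32883 entries, 39 named for the small subunit (Rps) and 60 for the large (Rpl), under 89 different names. It also took in Rps19bp1, a binding partner of a ribosomal protein that is not itself part of the ribosome, and copies with names such as Rps10l1. RNA sequencing had been made from gastrocnemius, a calf muscle, of 3 groups of rats: healthy animals (5 libraries), tumor-bearing animals (5 libraries) and tumor-bearing animals given chemotherapy (7 libraries). Every library title says that the animals ate the control diet, and no allele or transgene is given. The labels do not name the strain, age, tumor or agent, and they do not say whether each library came from its own animal, so p-values measure only the spread between these samples, which may be technical.

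Ribosomal protein messenger RNAs are abundant in every cell that grows or renews its proteins, and each subunit, assembled largely in the nucleolus, holds a single copy of most of its proteins. Most of the messenger RNAs begin at a cytidine inside a run of pyrimidines, the 5' terminal oligopyrimidine tract, through which the kinase mTORC1 and the protein Larp1 adjust their translation and stability. In skeletal muscle, where ribosome content and protein synthesis are linked, these genes are often read together as a measure of the capacity for translation. Several members have additional roles: Rpl5 and Rpl11 can bind the ubiquitin ligase Mdm2, Rps6 is the classic substrate of S6 kinase, and Rpl3l is a striated muscle paralog of Rpl3.

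The feature that most of these genes share outside their names is visible at their transcription starts. The following windows, from RefSeq on GRCr8, hold 30 bases before the annotated start and 20 from it, 5' to 3' on the transcribed strand, with capitals marking the pyrimidine run at the start. The first 6 genes were called higher after chemotherapy, Rps15 and Rplp0 had negative values, and the last pair are the paralogs Rpl3 and Rpl3l.
Rpl5 (chr14:1995206-1995255, minus strand): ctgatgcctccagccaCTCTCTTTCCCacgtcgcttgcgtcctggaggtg
Rpl4 (chr8:73566447-73566496, plus strand): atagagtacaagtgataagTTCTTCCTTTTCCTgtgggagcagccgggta
Rps24 (chr16:96487-96536, plus strand): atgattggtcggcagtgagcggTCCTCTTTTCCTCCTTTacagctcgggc
Rps23 (chr2:23814487-23814536, plus strand): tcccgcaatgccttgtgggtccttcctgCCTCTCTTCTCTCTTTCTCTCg
Rpl37a (chr9:81748061-81748110, plus strand): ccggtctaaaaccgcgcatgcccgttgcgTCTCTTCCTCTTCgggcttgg
Rps12 (chr1:23500045-23500094, plus strand): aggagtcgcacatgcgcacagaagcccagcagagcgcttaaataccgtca
Rps15 (chr7:10068096-10068145, minus strand): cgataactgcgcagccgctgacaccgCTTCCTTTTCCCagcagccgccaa
Rplp0 (chr12:46718371-46718420, minus strand): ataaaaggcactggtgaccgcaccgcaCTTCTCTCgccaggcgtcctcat
Rpl3 (chr7:113507971-113508020, minus strand): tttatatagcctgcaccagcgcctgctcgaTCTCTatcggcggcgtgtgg
Rpl3l (chr10:14258416-14258465, plus strand): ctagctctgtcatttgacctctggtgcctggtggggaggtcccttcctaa

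Rps12 and Rpl3l had no run at the annotated start. Rpl3 had the short run TCTCT, and Rps23 the longest of those shown. A run of at least 5 C or T that reached within 5 bases of the start, read on the transcribed strand only, was found in 46 of 69 members with 1 annotated start (66.7%) and in 5127 of 17545 protein-coding genes (29.2%). Such a match describes letters around an annotated start, and the deposited counts hold no measure of where transcripts began.

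Of the 99 entries, 79 passed a filter on low counts and were tested, 36 of the small and 43 of the large subunit, under 75 names. A set of 8 entries had no count in any library: Rpl8, both entries of Rpl7a, both of Rpl35al1, Rpl36al, Rplp0l1 and Rpl30l1. A count of 0 over all 17 libraries allows up to 3 counts, or 0.0233 CPM (counts relative to the scaled total of the library, the unit of all levels here), from counting error alone. The 12 other entries had counts but stayed under the filter, among them Rplp2, a protein of the acidic stalk, with 8 counts in all libraries together, Rpl38 with 32, Rpl9 with 33, Rps29 with 76, Rpl35a with 3 and the paralogs Rpl39l with 44 and Rpl10l with 87. The remaining 5 were a copy, Rps15al4, with 103 counts, and further entries of Rpl32 (120), Rps19l2 (11) and Rpl21 (2 and 4). Rps6, the S6 kinase substrate, was tested at 0.98 to 2.75 CPM in healthy muscle, while Rplp0 had 860.3 to 1685. These levels are counts per entry and not per length, so they give no order of abundance. RefSeq listed further genes named after the member, as copies or pseudogenes, for 63 of the 68 tested members that stood on 1 entry and could be matched, with a median of 13 and up to 36. How the authors counted reads that fit both a gene and a copy is not given in the sources used here, so the low and absent entries are uncertain. In addition, 8 names (Rpl21, Rps27a, Rps4x, Rps10, Rpl32, Rps19l2, Rpl35al1 and Rpl7a) stood on more than 1 entry, 18 in all, which the table does not tell apart, so their values are uncertain too.

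The 17 libraries held 3023899 to 15777909 counts on all entries. Libraries 11 and 12 of the chemotherapy group were closer to each other than any other pair, with a chi-square per degree of freedom of 2.04 against 5.39 for the next pair. They were summed and counted as 1 sample, library 11, which left 5 healthy, 5 tumor and 6 chemotherapy samples. Column names in the file carried the suffix MB for healthy libraries 1 to 4 and chemotherapy libraries 11 and 12, and VM for all the others. What the suffix stands for is not given in the sources used here, and it nearly coincides with the groups. Muscle markers were high everywhere: 9 of 12 listed genes were found and summed to 174483 to 313945 CPM. Healthy libraries 1, 3 and 4 stood apart from the other healthy libraries in many members, as described next, and results are also given without them.

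As a whole, the members' share of all counts was 1.46% ± 0.18 (SD, n = 5) in healthy muscle, 1.50% ± 0.17 (SD, n = 5) in tumor-bearing rats and 1.73% ± 0.10 (SD, n = 6) after chemotherapy. By sample the share ran from 1.26% to 1.62%, from 1.23% to 1.62% and from 1.57% to 1.85%. On the CPM scale the sums were 15556 ± 1348, 14642 ± 1603 and 16760 ± 1039 (SD, same n). The groups overlapped on both scales, and in bulk tissue fewer cells of a type and less RNA per cell cannot be told apart. Other parts of the library moved beside the share. Small noncoding RNA genes held 2.22% ± 1.07 of counts in healthy, 1.32% ± 0.59 in tumor and 0.97% ± 0.27 after chemotherapy (SD, same n). The 20 most abundant genes held 40.2% ± 3.0, 35.6% ± 2.5 and 35.6% ± 1.5, in the same order. Relative to the counts outside those 20 genes, the members had 2.44% ± 0.26, 2.33% ± 0.25 and 2.69% ± 0.19. On that scale the tumor mean lay below the healthy mean. The part of these genes in the members' share was not tested.

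Compared with healthy muscle, chemotherapy-treated tumor-bearing rats had 17 ribosomal protein entries called higher and 2 called lower at an adjusted p below 0.05. That was 21.5% and 2.53% of the 79 tested, against 7.3% and 6.41% of all 11856 genes tested. The median log2 fold change of the members was 0.17, beside -0.02 for all genes, and 49 members had positive and 30 negative values, from -0.89 to 1.44. In 20 members (25.3%) every chemotherapy sample lay above every healthy sample, against 2.02% of all genes. In none did every chemotherapy sample lie below, against 1.97%. The small subunit had 7 entries called higher and 1 lower (median 0.15), and the large 10 and 1 (median 0.17). Members with a name on 1 entry only gave 14 higher and 2 lower of 69.

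These calls rested on few samples. Without healthy library 1, 3 or 4, or without chemotherapy library 13, 14 or 15, each left out alone, edgeR called 0 members and 0 of all genes, with 20 to 26 members higher and 4 to 10 lower at an unadjusted p below 0.05. With the suffix as a term in the fit, or without healthy libraries 1, 3 and 4 together, 0 members and 0 of all genes were called as well. Only healthy library 5 and chemotherapy library 11 differ in suffix from the rest of their group, and the second fit keeps only healthy libraries 2 and 5. Whether lost power took the calls away was not tested. In these fits, at an unadjusted p below 0.05, 17 and 9 members were higher and 0 lower, with medians of 0.13 and 0.17 over the members. The share of all genes at an unadjusted p was not counted in these fits, nor in those with 1 library left out. In the fit to all samples it was 18.9% higher and 17.5% lower, beside 34.2% and 17.7% of the members. The log2 fold changes of the 17 members called higher were smaller with a further term in the fit or without the 3 healthy libraries. These 17 were chosen by their calls in the fit to all samples, so some decrease in other fits is expected from that choice. Their median was 0.65 in the fit to all samples, 0.50 with the suffix term and 0.44 without the 3 healthy libraries. It was 0.34 with 1 surrogate variable, a term estimated from the counts. In the same order, Rpl5 had 1.44, 1.004, 0.78 and 0.52, Rps24 had 1.15, 0.83, 0.67 and 0.38, and Rpl4 had 1.01, 0.71, 0.42 and 0.30. Rpl27, called lower in the fit to all samples, had -0.49, -0.36, -0.08 and -0.04. Scaling by total counts alone, which moved the median of all genes to 0.12, gave 27 members higher and 0 lower, beside 1669 and 348 of all genes.

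**Figure D1:**
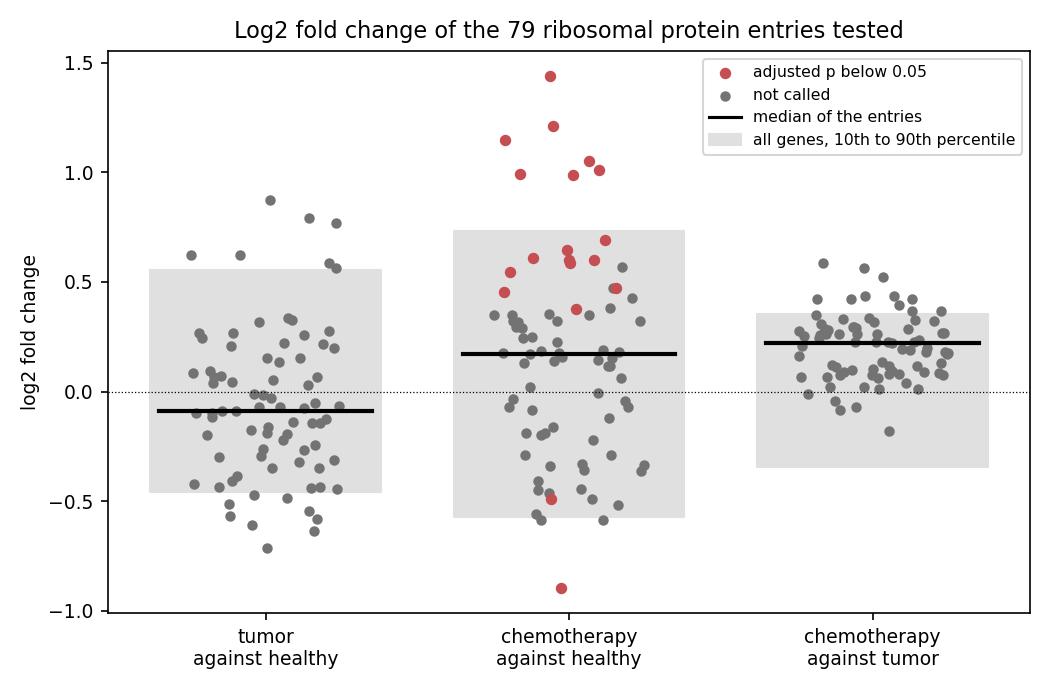
Log2 fold change (vertical axis) of the 79 tested ribosomal protein entries in 3 comparisons (horizontal axis), each point 1 entry, red where the adjusted p was below 0.05, with the median of the entries as a line and the 10th to 90th percentile of all genes as a grey band. Only chemotherapy against healthy has red points, 17 above and 2 below 0, and against tumor 74 of 79 points lie above 0.

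Rpl5, which carries 5S ribosomal RNA into the large subunit and can bind Mdm2, had the largest log2 fold change among the members. Its level was 115, 284, 122, 78.7 and 247 CPM in healthy libraries 1 to 5, 417, 329, 166, 428 and 209 in tumor libraries 6 to 10 and 303, 504, 537, 478, 494 and 431 in chemotherapy libraries 11 and 13 to 17. Every chemotherapy sample lay above every healthy one, with healthy 1, 3 and 4 lowest and library 11 the lowest of its group. The log2 fold change, given here and below ± its standard error, was 1.44 ± 0.31, adjusted p = 0.0261. Rpl11, its partner in the 5S particle, had 185, 199, 203, 234 and 195 CPM in healthy and 228, 260.4, 230.2, 202, 221 and 234 in chemotherapy samples. These groups overlapped, and its log2 fold change was 0.17 ± 0.12, adjusted p = 0.296. Whether the values of Rpl5 and Rpl11 differ from each other was not tested.

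Rps24, a small subunit protein needed for maturation of its ribosomal RNA, measured 64.8, 134, 82.8, 48.6 and 111 CPM in healthy, 191, 134, 73.0, 168 and 112 in tumor and 140.1, 222, 236, 205, 188 and 179 after chemotherapy. Its chemotherapy samples all lay above the healthy ones. Its log2 fold change was 1.15 ± 0.25, adjusted p = 0.0261. Rpl4, whose long loop lines the exit tunnel for the growing peptide, had 296, 621, 275, 229 and 584 CPM in healthy, 748, 597, 330.1, 832 and 504 in tumor and 665, 798, 927, 806, 852 and 792 after chemotherapy. Healthy 1, 3 and 4 lay well below healthy 2 and 5, which fell within the tumor range. The log2 fold change of Rpl4 was 1.01 ± 0.26, adjusted p = 0.0290. Rps3a, a small subunit protein near the exit of messenger RNA, showed the same order of healthy samples, with 138, 262, 124, 99.1 and 248 CPM, against 274, 393, 404, 327, 346 and 321 after chemotherapy. Its log2 fold change was 0.99 ± 0.23, adjusted p = 0.0271. Rpl30 of the large subunit followed with 32.9, 61.5, 38.8, 22.8 and 62.1 CPM in healthy and 68.9, 96.5, 101, 93.5, 92.4 and 87.8 in chemotherapy samples, a log2 fold change of 1.05 ± 0.24, adjusted p = 0.0261. In all 4 of these genes healthy 1, 3 and 4 were the lowest of the 16 samples or had only tumor library 8 among them.

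A second set of members rose by less and with closer samples. Rps23, a protein at the decoding center of the small subunit, had 138, 160.4, 135, 139 and 162 CPM in healthy, 189, 179.6, 131, 193 and 156 in tumor and 189, 232, 233, 206, 227 and 249 after chemotherapy. Its healthy samples lay close together, although libraries 1, 3 and 4 were again the lowest of them. The log2 fold change was 0.60 ± 0.13, adjusted p = 0.0261. Rpl37a, a zinc-binding protein of the large subunit, had 178, 192, 209.5, 196 and 205 CPM in healthy and 259.7, 272, 287, 245, 278 and 272 in chemotherapy samples, without overlap. Its log2 fold change was 0.46 ± 0.11, adjusted p = 0.0279. Rps12, at the beak of the small subunit, had 129.8, 141, 144, 119 and 154 CPM in healthy and 189, 205, 213, 164, 233 and 199 in chemotherapy samples, again without overlap (log2 fold change 0.54 ± 0.14, adjusted p = 0.0281).

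**Figure D2:**
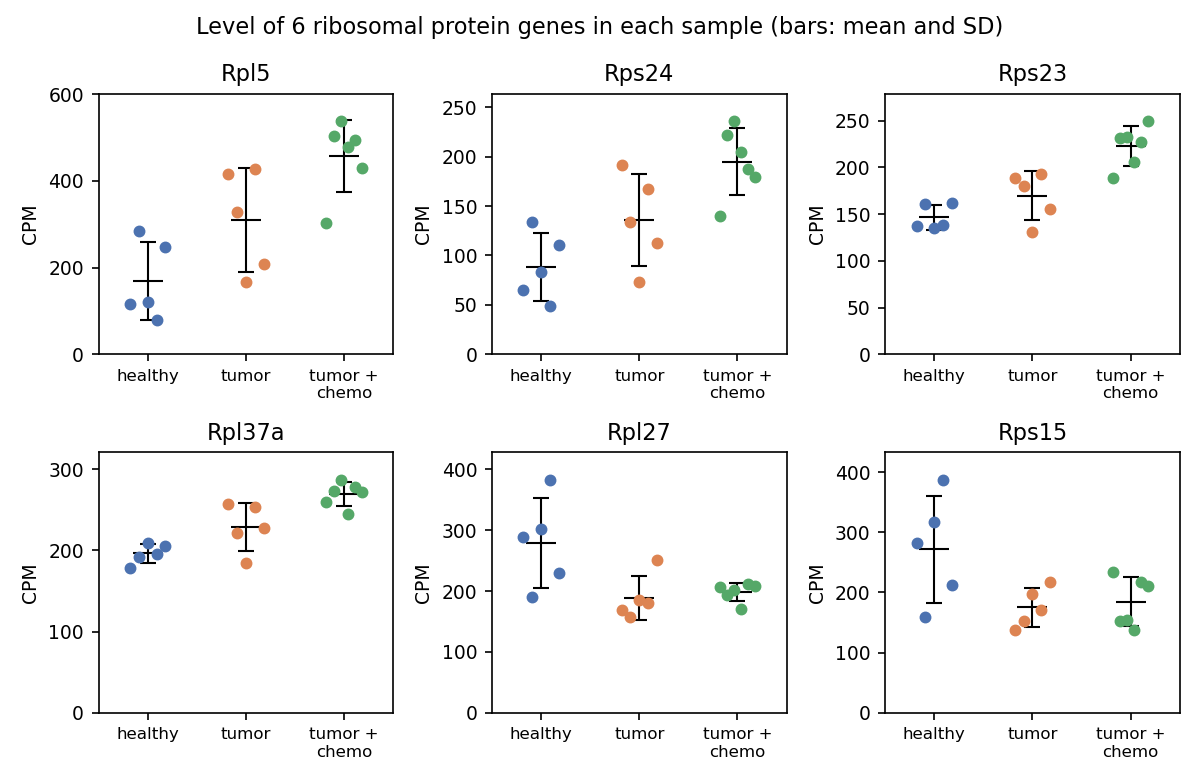
Level in CPM (vertical axis, from 0) of Rpl5, Rps24, Rps23, Rpl37a, Rpl27 and Rps15 in each sample of the healthy, tumor and tumor with chemotherapy groups (horizontal axis), with the mean and SD of each group in black. The chemotherapy samples of the first 4 genes lie above all healthy samples, while those of Rpl27 and Rps15 overlap with them.

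Other members called higher were Rps25 (0.65 ± 0.16), Rpl23 (0.61 ± 0.18), which can also bind Mdm2, Rpl7 (0.60 ± 0.15), Rpl31 (0.47 ± 0.14), a protein near the tunnel exit, and Rpl34 (0.38 ± 0.12), all as log2 fold changes. Their adjusted p-values ran from 0.0289 for Rpl7 to 0.0470 for Rpl34. Uncertain entries called higher were 2 of the 4 named Rpl21 (1.21 ± 0.25 and 0.99 ± 0.23) and 1 of the 2 named Rps27a (0.59 ± 0.16), which encodes a fusion with ubiquitin. The other tested Rps27a entry had 0.32 ± 0.15, adjusted p = 0.129. Rpl17, Rpl23a and an entry of Rps4x also had no overlap between chemotherapy and healthy samples, but they did not pass the test, with log2 fold changes of 0.32, 0.32 and 0.30 and adjusted p-values of 0.0926, 0.0682 and 0.0767. Rpl34 was called with overlapping groups, 40.2 to 49.5 CPM in healthy and 46.1 to 65.1 after chemotherapy.

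Rpl27 of the large subunit was called lower. It had 289.6, 191, 302, 383 and 229 CPM in healthy, 169, 157, 186, 181 and 251 in tumor and 207, 193, 202, 169.8, 212 and 208 after chemotherapy. Healthy 1, 3 and 4 were the 3 highest of all samples, and healthy 2 lay within the chemotherapy range. The log2 fold change was -0.49 ± 0.16, adjusted p = 0.0480. The other member called lower was Rps10l1, a copy named after Rps10, at 7.93, 5.77, 11.1, 15.3 and 8.10 CPM in healthy and 8.26, 3.33, 3.31, 2.49, 5.49 and 7.61 in chemotherapy samples (log2 fold change -0.89 ± 0.29, adjusted p = 0.0482). It is uncertain, since reads of such a copy and of its parent gene can be alike. The number of members called lower moved with single samples. It was 0 without healthy library 1, 3 or 4 or chemotherapy library 13, 14 or 15, when 0% of all genes were called lower. It was also 0 without tumor library 7 or 9 or chemotherapy library 16, when 5.53%, 6.2% and 2.27% of all genes were called lower. It was 1 without tumor library 10 or chemotherapy library 17 (1.27% and 1.28%), against 6.22% and 3.93% of all genes. It was 8 (10.1%) without healthy library 5 or chemotherapy library 11, when 9.69% and 11.7% of all genes were called lower. Without healthy library 2 it was 17 (21.5%), when 14.8% of all genes were called lower.

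Several abundant members had negative values without passing the test. Rps15, in the head of the small subunit, had 283, 159, 317, 387 and 212 CPM in healthy and 234, 152, 155, 138, 217 and 211 in chemotherapy samples, with a log2 fold change of -0.56 ± 0.20, adjusted p = 0.0629. Rpl15 of the large subunit had 350.2, 193, 426, 411 and 274 CPM in healthy samples. Its chemotherapy samples had 281, 201, 228, 189.7, 215 and 273 CPM, a log2 fold change of -0.52 ± 0.18, adjusted p = 0.0602. Rplp0, the base of the acidic stalk that recruits elongation factors, had 1446, 860.3, 1524, 1685 and 1205 CPM in healthy, 912, 815, 1118, 1053 and 1377 in tumor and 1381, 966, 1067, 795, 1118 and 1087 after chemotherapy (-0.33 ± 0.18, adjusted p = 0.188). In all 3 genes healthy 1, 3 and 4 were the highest of the healthy samples, and the healthy and chemotherapy ranges overlapped. Rpsa, also known as the laminin receptor precursor, had 485 to 835 CPM in healthy and 509 to 704 in chemotherapy samples (-0.16 ± 0.14, adjusted p = 0.424). Rps16, Rpl28, Rps28, Rps18 and Rps2 had log2 fold changes of -0.59, -0.49, -0.45, -0.36 and -0.36, none past the threshold.

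**Figure D3:**
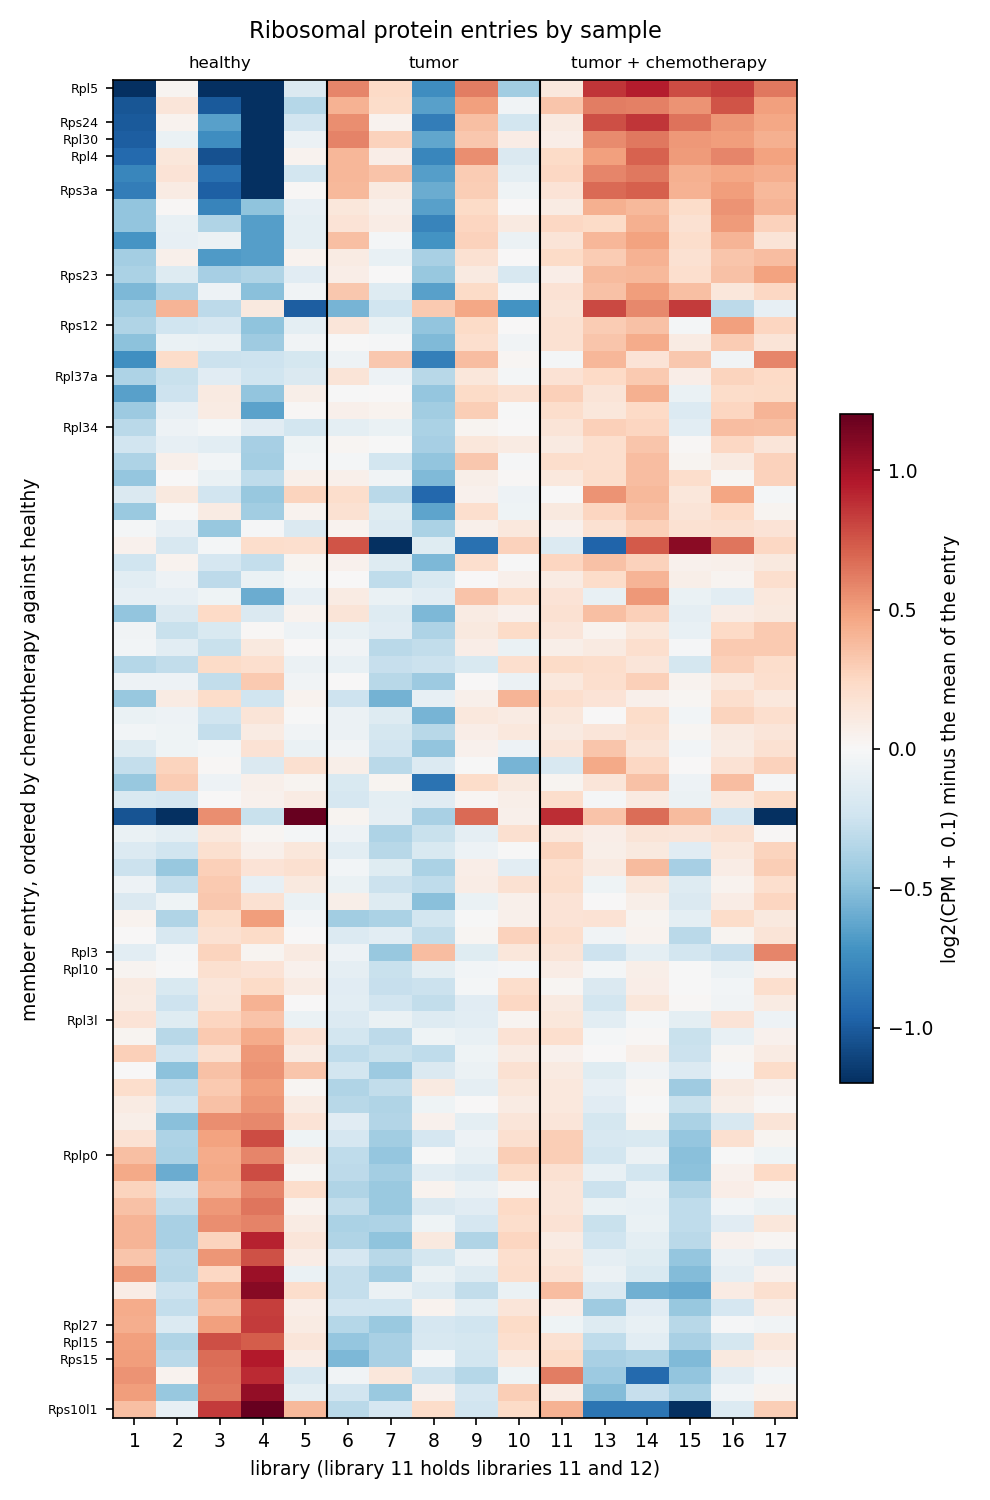
Each row is 1 of the 79 tested ribosomal protein entries, ordered by log2 fold change of chemotherapy against healthy, with only some rows labelled, and each column 1 sample; color gives log2(CPM + 0.1) minus the mean of the entry over the 16 samples, limited to 1.2 in either direction. Healthy libraries 1, 3 and 4 are low in the upper rows and high in the lower ones, tumor library 8 is low in the upper rows, and most chemotherapy samples are high in the upper rows.

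Members at the upper and the lower end of this order took opposite positions in the same healthy samples. The order was made from these samples, so opposite positions of the healthy group at its ends are built in. The values below show which healthy samples held them. The lowest Rpl5 level of all samples, 78.7 CPM, and the highest Rpl27 level, 383 CPM, were both in healthy library 4. Healthy library 2 had 284 CPM of Rpl5 and 191 of Rpl27, near chemotherapy library 11 with 303 and 207. Tumor library 8, at 166 and 186 CPM, was the lowest tumor sample for Rpl5 and lay within the tumor range for Rpl27. The small noncoding share was 2.62%, 2.51% and 3.60% in healthy libraries 1, 3 and 4, 0.81% and 1.58% in healthy 2 and 5, and 2.15% in tumor library 8. What sets these libraries apart was not tested.

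**Figure D4:**
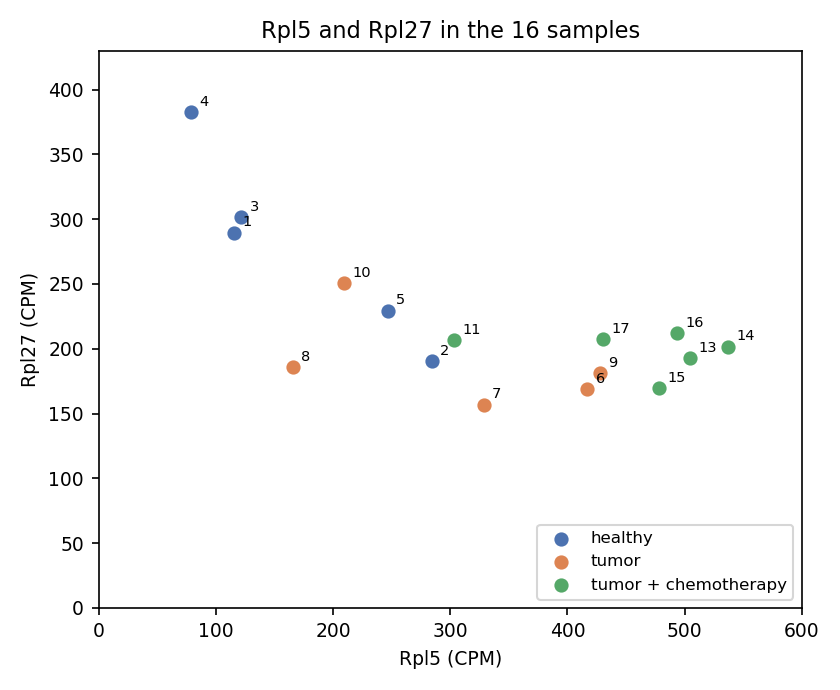
Rpl5 (horizontal axis) against Rpl27 (vertical axis), both in CPM, with 1 point per sample, colored by group and labelled by library number. Healthy 1, 3 and 4 lie at the upper left, healthy 2 and 5 lie lower and further right, and 5 of the 6 chemotherapy samples lie at the right, from 431 to 537 CPM of Rpl5.

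Because the suffix nearly coincides with the groups, the comparison was also read within each suffix, as values with no test. Among MB libraries, chemotherapy library 11 exceeded all 4 healthy libraries in 33 of 79 members (41.8%, against 12.8% of all genes) and lay below all 4 in 0 (all genes 12.1%). Among VM libraries, the 5 chemotherapy libraries all exceeded healthy library 5 in 28 members (35.4%, against 23.6% of all genes) and lay below it in 14 (17.7%, against 23% of all genes). All 17 entries called higher were on the higher side in both readings. For all of these but Rpl34 this was fixed in advance, since their chemotherapy and healthy samples did not overlap at all. The 20 members without overlap over all samples are among both the 33 and the 28 for the same reason. The shares within each suffix are therefore no separate check on the comparison over all samples. The 2 called lower were on the lower side among VM libraries only. For Rpl5 the MB values were 78.7 to 284 CPM in healthy and 303 in library 11, and the VM values 247 in healthy library 5 and 431 to 537 after chemotherapy. Each reading has 1 sample on one side, so its difference has no replicate check there.

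**Figure D5:**
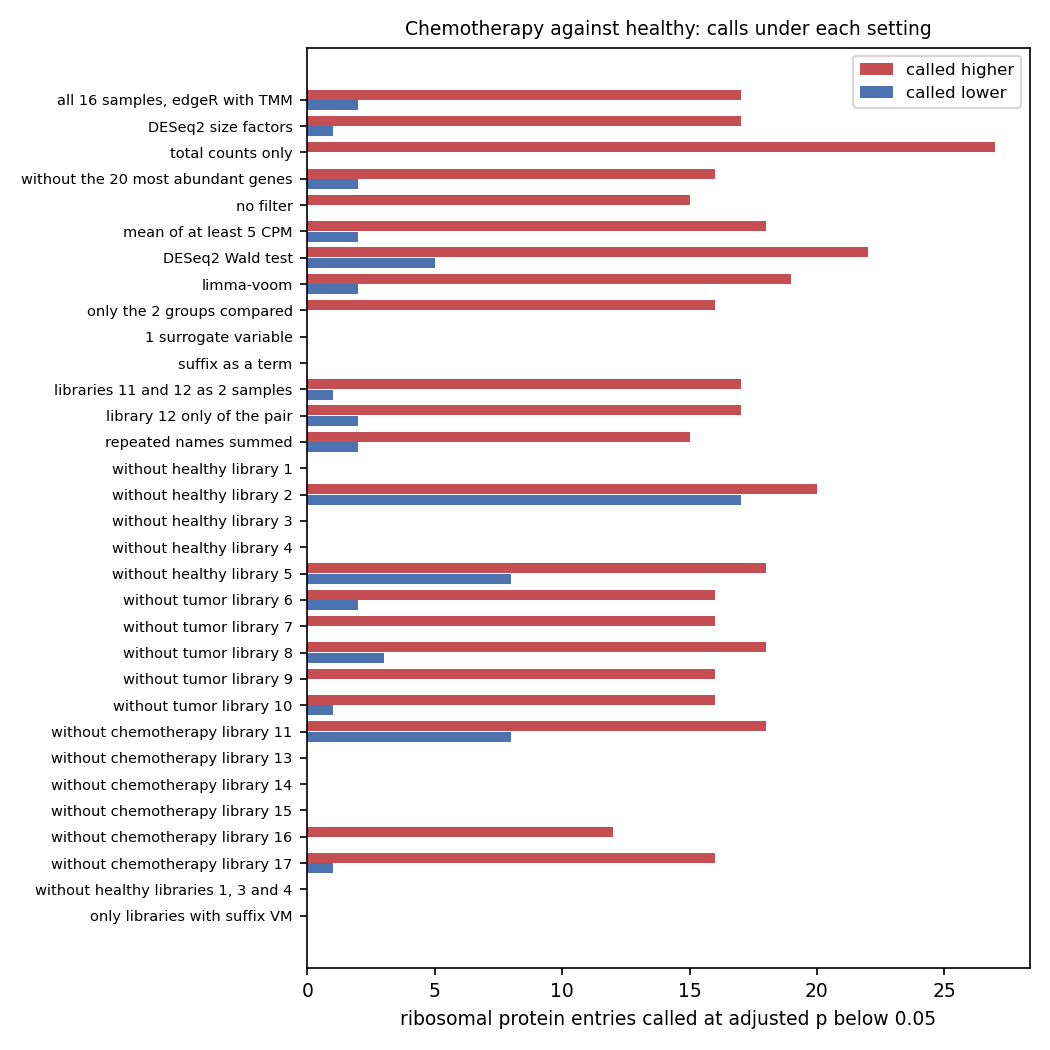
Number of ribosomal protein entries called higher (red) and lower (blue) for chemotherapy against healthy (horizontal axis, from 0) under each setting of the analysis and with each sample left out (vertical axis). The counts are 0 without healthy library 1, 3 or 4, or chemotherapy library 13, 14 or 15, and 20 higher and 17 lower without healthy library 2, when 16.9% and 14.8% of all genes were called higher and lower.

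Tumor-bearing rats without chemotherapy gave no called member against healthy rats with edgeR (0% of all genes were called), and the smallest adjusted p of a member was 0.211. DESeq2's Wald test and limma-voom called 0 members too. Of all genes, DESeq2 called 0.143% higher and 0.194% lower, and limma-voom 0%. At an unadjusted p below 0.05, 7 members (8.86%) were higher and 17 (21.5%) lower, against 8.88% and 9.12% of all genes. The median log2 fold change was -0.09, beside 0.01 for all genes, and 31 members had positive and 48 negative values. Rpl27 had the smallest p among the members, at -0.57 ± 0.17, adjusted p = 0.211. Rpl15 had -0.61 ± 0.19, adjusted p = 0.216. Rpl30 had 0.77 ± 0.24, adjusted p = 0.216, the other way. Rpl5 had 0.87 ± 0.32, adjusted p = 0.242. All are log2 fold changes. Without healthy library 2, 4 members (5.06%) were called higher and 7 (8.86%) lower, when 2.04% and 2.16% of all genes were. The 4 called higher were Rpl5 (1.13), Rpl30 (0.91) and the uncertain Rpl21 entries at 1.05 and 0.85. Rpl15 (-0.76) and Rpl27 (-0.68) were among the 7 called lower. The sign of the members' median turned with scaling by total counts alone, to 0.036, when that of all genes moved to 0.13.

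Rpl10, which joins the large subunit late and shapes its peptidyl transferase center, was the only member (1.27%) whose tumor and healthy samples did not overlap, against 0.995% of all genes. It had 382, 373, 427, 418 and 387 CPM in healthy, 348, 311, 345, 366 and 372 in tumor and 397, 367, 393, 373, 356 and 388 after chemotherapy. The nearest samples, tumor library 10 and healthy library 2, were almost level, and the log2 fold change was -0.19 ± 0.11, adjusted p = 0.326.

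Between tumor-bearing rats with and without chemotherapy, the members mostly had values of 1 sign. The log2 fold change was positive in 74 of 79 members (93.7%), beside 50.6% of all genes, with a median of 0.22 against 0.00. No member passed the test with edgeR, DESeq2's Wald test or limma-voom, and the smallest adjusted p with edgeR was 0.778. Of all genes, 0% were called with edgeR or limma-voom, and DESeq2 called 0.0169% higher and 0.059% lower. At an unadjusted p below 0.05, 15 members (19%) were higher and 0 lower, against 1.97% and 3.81% of all genes. The median without tumor library 8 was 0.13, and leaving out any other sample kept it between 0.19 and 0.25. Within the VM libraries the median was 0.20, with 68 of 80 members positive.

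Rps23 had the smallest p among the members in this comparison, with a log2 fold change of 0.39 ± 0.13, adjusted p = 0.778. Rpl34 had 0.33 ± 0.12, adjusted p = 0.778. Rps15a, a small subunit protein, had 147, 116, 108, 146 and 139 CPM in tumor and 159, 168, 178, 150.5, 159 and 167 after chemotherapy, with 0.32 ± 0.13, adjusted p = 0.778. Rps15a and Rpl7 were the only 2 members (2.53%) whose groups did not overlap, against 0.481% of all genes. Rpl7 had 392, 345, 281, 416 and 369 CPM in tumor and 431, 453, 489.6, 418, 464 and 473 after chemotherapy, with tumor library 9 and chemotherapy library 15 almost level. Rpl6 (0.29 ± 0.12), Rpl11 (0.29 ± 0.12) and Rpl22l1 (0.44 ± 0.19) lay on the same side. This comparison shares its chemotherapy samples with that against healthy rats, and its tumor samples with the one before.

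A list of paralogs with restricted or variant expression, which includes the widely expressed Rps4x, had 7 tested entries, and 0 of them passed the test in any comparison. Rpl3l, the striated muscle form, had 361, 291, 385, 408 and 304 CPM in healthy, 287, 304, 289, 295 and 329 in tumor and 353, 294, 317, 296, 359 and 308 after chemotherapy. Rpl3, the general form, had 87.5, 93.9, 115, 97.6 and 103 CPM in healthy samples. Its tumor samples had 91.3, 69.7, 124, 86.1 and 105 CPM, and its chemotherapy samples 106, 80.1, 88.0, 81.9, 78.9 and 143 CPM. The ranges of the 3 groups overlapped for both genes. Chemotherapy against healthy gave a log2 fold change of -0.12 ± 0.12, adjusted p = 0.466 for Rpl3l and -0.04 ± 0.17, adjusted p = 0.877 for Rpl3. Rpl22l1, a paralog that can stand in for its parent, had 0.35 ± 0.19, adjusted p = 0.191, and Rps27l, a paralog of Rps27, had 0.15 ± 0.18, adjusted p = 0.549, beside -0.19 ± 0.16, adjusted p = 0.40 for Rps27. Rpl39, a small protein of the exit tunnel, had 0.25 ± 0.15, adjusted p = 0.227. Rplp1, a stalk protein, had 0.06 ± 0.13, adjusted p = 0.769. Rps6 had 0.57 ± 0.35, adjusted p = 0.239 at 1.63 to 3.74 CPM after chemotherapy. The second tested Rps4x entry had 0.32 ± 0.44, adjusted p = 0.617 and is uncertain.

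Features of the genes were set beside these values as descriptions, for tested members with a name on 1 entry and 1 RefSeq gene. The 27 members with a small nucleolar RNA gene inside their span had a median log2 fold change of 0.22 for chemotherapy against healthy. Among them 7 were called higher and 0 lower, 19 had positive values and 8 negative ones. Rpl5, Rpl4, Rps3a and Rps12 were on the positive side, and Rps16, Rps2 and Rpsa on the negative side. The 41 members with no such gene had a median of 0.14, with 7 higher and 1 lower, and 23 positive and 18 negative values. Members with a pyrimidine run at the start had a median of 0.17 (39 members, 9 called higher). Those without a run had 0.16 (16 members, 1 called higher). The background for these counts is 7.3% of all genes higher and 6.41% lower. Whether members with and without a feature differ was not tested. Rps15, of the negative values, has the run shown above, and Rps12, called higher, does not. Across 68 members the log2 fold change and the genomic span had a Pearson correlation of 0.09 and a Spearman correlation of 0.11, over genes measured in the same samples.

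Among ribosomal proteins with other names, Rack1, a scaffold on the small subunit, had a log2 fold change of -0.41 ± 0.17, adjusted p = 0.0941. Fau, a fusion that yields a small subunit protein, was at 0 in every library. Of 20 tested genes from a list of other translation factors and messenger RNAs with oligopyrimidine tracts, 4 (20%) were called higher and 3 (15%) lower for chemotherapy against healthy, against 7.3% and 6.41% of all genes, with a median of -0.07. Npm1, a nucleolar chaperone, rose by 1.13 ± 0.27 and Tpt1, the translationally controlled tumor protein, by 1.07 ± 0.28 on the log2 scale. Eef1a2, the muscle form of the elongation factor that delivers transfer RNAs, had -0.78 ± 0.19, adjusted p = 0.0271, and Eef2, the translocation factor, -0.67 ± 0.21, adjusted p = 0.0425. Eef1a1, the general form, had -0.08 ± 0.17, adjusted p = 0.772.

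Among 69 tested genes of ribosome biogenesis, 3 (4.35%) were called higher and 7 (10.1%) lower for chemotherapy against healthy, against 7.3% and 6.41% of all genes, with a median of 0.02. The small subunit factor Bysl had -0.75 ± 0.15, adjusted p = 0.0261, and Bop1, a large subunit factor, -0.74 ± 0.16, adjusted p = 0.0261. Ubtf, the transcription factor of ribosomal DNA, had -0.09 ± 0.12, adjusted p = 0.601. Of 36 tested genes that control ribosome production, 1 (2.78%) was called higher and 6 (16.7%) lower, with a median of -0.02. Tsc2, an inhibitor of mTORC1, fell (-0.82 ± 0.20, adjusted p = 0.0271). Larp1, which binds oligopyrimidine messenger RNAs, had -0.21 ± 0.14, adjusted p = 0.276, and Myc, a transcription factor that raises ribosome production, -0.50 ± 0.31, adjusted p = 0.252. No gene of these lists passed the test in the other comparisons. Their calls against healthy rats were lost, like those of the members, without any one of healthy libraries 1, 3 and 4 or chemotherapy libraries 13, 14 and 15.

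Markers of other cell types moved beside the members in part. The levels of 6 pericyte and smooth muscle genes summed to 321 to 392 CPM in healthy and 285 to 425 in tumor. After chemotherapy the sum was 195 to 284 CPM, and 4 of the 6 were called lower against healthy. The background for this and the following counts is 6.41% of all genes lower and 7.3% higher. The lists are short, so a single gene weighs heavily in each. Of 7 fibroblast genes, at 6152 to 16227, 3899 to 14777 and 3225 to 12685 CPM, 3 were called lower. Of the 9 muscle fiber genes, 3 were called lower as well. Macrophage genes (9 of 9 tested, none called) summed to 214 to 466, 181 to 343 and 219 to 435 CPM. Of 6 endothelial genes 1 was called higher and 1 lower, of 4 adipocyte genes tested 1 was called higher, and of 4 satellite cell genes 1 was called lower. Red blood cell genes (5 tested, none called) summed to 440 to 1379, 227 to 588 and 124 to 917 CPM. Lymphocyte genes, 8 found and 0 tested, reached 54.6 CPM in 1 chemotherapy sample and 2.01 in healthy ones, and the epithelial genes, 7 found and 0 tested, 86.2 CPM in 1 tumor sample. Of the neutrophil genes, Elane was at 0 throughout. The part of these cells in the members' values was not tested.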

How the data were processed

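Total RNA of gastrocnemius was stripped of ribosomal RNA before stranded library preparation, per the labels' protocols. The authors deposited raw counts per gene. Tools listed in the submitters' processing notes are TopHat2 2.0.10, Bowtie2, Trim Galore 0.4.1, CASAVA 1.9 and FastQC 0.11.4. No label or header used here gives the genome build, annotation, counting program or use of strand. By library, 46% to 59.6% of counts from 1 to 10 were even, so whether a read pair counted once or as 2 mates is unclear.

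Entries without a name (388, 0.206% of counts) were left out. Libraries 11 and 12 were summed. Counts were filtered with filterByExpr (minimum count 10), scaled with TMM and tested with edgeR 4.0.16 (quasi-likelihood, robust, 3 groups in 1 fit, 13 residual degrees of freedom, R 4.3.3), with Benjamini-Hochberg adjustment over the 11856 genes tested. CPM are counts divided by the TMM-scaled library total, on edgeR's CPM scale. On counts simulated for this design the same code was tested first. DESeq2 1.42.0, limma 3.58.1 and sva 3.50.0 served as alternatives.

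The members and the gene lists were chosen with earlier results of these data known. Members named were those called (at most the 8 with the smallest p and the 4 with the largest change per direction), the 4 with the smallest p in each comparison, the 3 highest, and a list by name. Other called members, some without overlap between groups, the untested entries and the uncalled members with negative values were named after their values were seen. Of other lists, the 2 genes with the smallest p in each comparison and a list by name were available for naming. RefSeq sequences and spans are of GRCr8, with 85 of 89 member names matched by symbol and 3 by synonym. Some members and list genes are counted in the totals but not reported here by name. Depth was read from the counts of each library, and counting limits cover counting error only.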

Additional observations from a re-analysis of the deposited data

How the results depend on the processing

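For chemotherapy against healthy, the 17 members called higher became 27 with scaling by total counts alone (34.2%, against 14.1% of all genes). They became 0 when the fit held the suffix or 1 surrogate variable, or without healthy libraries 1, 3 and 4 together. The last of these keeps only healthy libraries 2 and 5. Only healthy library 5 and chemotherapy library 11 differ in suffix from the rest of their group. Whether lost power took these calls away was not tested. With VM libraries only, healthy library 5 stood alone, and the median log2 fold change of these 17 was 0.50. The 2 called lower became 1 with DESeq2 size factors or with libraries 11 and 12 as 2 samples (all genes 5.95% and 5.21%). They became 5 with DESeq2's Wald test. They became 0 with total counts alone, no filter or only the 2 groups compared, when 2.94%, 2.14% and 5.58% of all genes were called lower. They were also 0 with a surrogate variable or suffix term, or without healthy libraries 1, 3 and 4, when 0 of all genes were called. DESeq2's Wald test called 22 members higher and 5 lower (27.8% and 6.33%), against 12.3% and 9.47% of all genes. The limma-voom test called 19 and 2 (24.1% and 2.53%), against 13.3% and 7.46% of all genes. With single samples left out, the higher count ranged from 0 to 20 and the lower from 0 to 17. Of all genes, 0% to 16.9% were called higher and 0% to 14.8% lower in these fits. The members' median log2 fold change was 0.31 with total counts alone, when that of all genes moved to 0.12. For tumor against healthy that scaling gave a median of 0.036, and single samples left out gave 0 to 4 members higher and 0 to 7 lower. Of all genes, those fits with single samples left out called at most 2.04% higher and 2.16% lower. For chemotherapy against tumor, 0 members were called in every setting, when at most 0.0337% of all genes were called higher and 0.059% lower. The cause of these changes was not tested. Over 93 named values and 31 settings, 156 of 2841 values lost a call, 14 gained one and no called value changed sign, although 80 uncalled ones did. Where no member was called in either direction for chemotherapy against healthy, 0 of all genes were called either. At the lowest depth, 3023899 counts, entries of a few counts per library such as Rplp2 could not be compared. No paired analysis was possible because the groups share no replicate numbers.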
